A study of Mus musculus with 9 samples.

Results

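Cytoplasmic ribosomal protein genes were examined in lymphomas of mice that overexpress Bcl6, with and without heterozygous deletion of Smc3. The members were the rows of the count table whose symbol is Rps or Rpl followed by a number, with or without a final a, x, y or l, or is Rplp0, Rplp1 or Rplp2, whose name carries no pseudogene ending, and whose mean was at least 10 counts over the 9 tumors. Of 41128 genes in the table, 80 carried such a symbol and 76 reached the minimum, 45 of them encoding proteins of the large subunit and 31 of the small subunit. The 4 below it were Rpl23a, with a mean of 8.44 counts, Rpl3l with 2, Rpl39l with 1.78 and Rpl10l, which had 0 counts in every tumor.

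Bulk RNA-seq had been performed on 3 Bcl6 tumors (IµBcl6; Smc3 wt/wt) and 6 Smc3/Bcl6 tumors (IµBcl6; Smc3 wt/–), with 1 library from each. Both groups carry the IµBcl6 transgene, which drives Bcl6 from the immunoglobulin heavy chain locus, and per the study's methods both carry Cγ1-Cre, which is switched on as B cells join the germinal center reaction. Tumors came from lymph nodes, which the study describes as mesenteric for both genotypes and the labels name mesenteric only for replicate 1 of each genotype. The age and sex of the mice are not given in the sources used here. The labels name no sort of the tumor cells, so in these bulk samples fewer cells of a type and less RNA per cell cannot be told apart.

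The cytoplasmic ribosome is built from a small subunit, which reads the messenger RNA, and a large subunit, which joins the amino acids, and nearly every ribosomal protein is present in a single copy per ribosome. The messages of these proteins begin with a tract of pyrimidines at their cap, through which mTORC1 signaling sets their translation as a group, and their transcription is raised by Myc. Germinal center B cells that enter the Myc-driven growth program, and the lymphomas that arise from them, are known for high ribosome production.

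The shared pyrimidine tract was looked for in RefSeq promoters of GRCm38.p6, since it is the sequence feature for which this gene group is best known. A tract was counted where an unbroken run of at least 8 pyrimidines that begins with C lay within 50 bases of an annotated start. The strand read was the one with the sequence of the message. RefSeq promoters were at hand for 56 of the 76 members, and 49 of these, or 87.5%, held such a run, against 32.0% of 27025 genes and 31.3% of 67 mitochondrial ribosomal protein genes. Of 10 other messages listed as beginning with such a tract 4 held the run, so the search misses most of those. Read on the opposite strand, the same run was present in 21.4% of the 56 members and in 34.4% of all genes. A match is a description of the letters and does not say that the tract is used. The windows below are 30 bases long, are shown for members on which the results turn, and carry the tract in capitals. Positions count from an annotated start as base 1, and a negative position lies upstream of that start, outside a message that begins there. Some genes have more than 1 annotated start, of which 1 is used here. Rpl22, Rps19 and Rps27l each also have a start without such a run. From another start the run lies at position 42 in Rps19 and 35 in Rps21.
Rpl4, chr9:64173406-64173435, plus strand, tract from position 27: agcgtggCCTTCTCCTCTCCCCgtcatggt
Rpl5, chr5:107900498-107900527, plus strand, tract from position -20: cctacagccaCTCTTTCTCacgtcgcttgc
Rpl10, chrX:74270836-74270865, plus strand, tract from position 42: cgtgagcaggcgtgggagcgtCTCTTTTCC
Rpl22, chr4:152325679-152325708, plus strand, tract from position -39: ccgtctgaCTCCTCCCTTTCCCgacagccg
Rpl39, chrX:37085173-37085202, minus strand, tract from position 37: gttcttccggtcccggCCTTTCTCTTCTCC
Rps15, chr10:80292447-80292476, plus strand, tract from position 26: cagcccgtaCTTCCTTTTCCgagtaaccgc
Rps19, chr7:24884624-24884653, plus strand, tract from position -43: cccgtcgttCCCTTTCCCCTggctggcagc
Rps21, chr2:180257403-180257432, plus strand, tract from position -36: gcacgagctaCTTCCTTTCTgcgctctcgc
Rps25, chr9:44407684-44407713, plus strand, tract from position -22: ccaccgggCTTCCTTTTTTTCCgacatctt
Rps27l, chr9:66946064-66946093, plus strand, tract from position -12: ctcctctccaCTCCTCCCCgccgcctctat

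The libraries were not alike. Total counts ranged from 10156728 to 17774577. Smc3/Bcl6 tumor 2 stood apart, with high counts of short genes and low counts of long genes. Its 10 most abundant genes took 16.0% of counts against 6.49% to 10.8% in the other 8 tumors, immunoglobulin genes took 7.83% against 1.57% to 6.13%, and mitochondrially encoded genes took 5.17% against 1.52% to 4.90%. Its TMM scaling factor was 0.693, while the other 8 tumors had 0.964 to 1.10, and Spearman's rho between exon length and the deviation of a gene from the mean of the other tumors was -0.47 over all genes tested in that tumor. Smc3, the targeted gene, averaged 104 CPM (counts scaled to the TMM-adjusted library) in the Bcl6 genotype and 91.4 CPM in the Smc3/Bcl6 genotype, where tumor 2 stood at 27.9 CPM. Without tumor 2 the Smc3/Bcl6 genotype averaged 104 CPM, with a log2 fold change of 0.01 (standard error 0.14). The lower mean in these counts thus rested on that tumor, and Smc3 counts were not detectably lower in the other 5. The study reported reduced Smc3 in Smc3/Bcl6 tumors by RT-qPCR. Its deletion targets a single exon, whereas the counts cover the whole gene, so they are no direct measure of the deletion. Because Smc3/Bcl6 tumor 2 stood apart, most genotype differences below are given with and without it.

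Ribosomal protein genes took under 1.1% of all counts in 8 of the 9 tumors. Many of them share sequence with other genes, so the shares may miss reads that match several genes. Their share was 0.716%, 0.699% and 0.583% in Bcl6 tumors 1 to 3, and in the Smc3/Bcl6 tumors it ranged from 0.547% in tumor 4 to 2.20% in tumor 2, with a median of 0.773%. Smc3/Bcl6 tumor 2 was 3.10 times the median of the other 8 tumors, and the genotypes overlapped with and without it. The 95% Wilson intervals of the shares, which cover counting error only, reached at most 0.00777 percentage points to either side.

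The mean share was 0.666% ± 0.0726 (SD, n = 3) in Bcl6 and 0.988% ± 0.615 (SD, n = 6) in Smc3/Bcl6 tumors. Without tumor 2 the Smc3/Bcl6 mean was 0.746% ± 0.186 (SD, n = 5), and the difference between genotypes went from 0.322 to 0.0798 percentage points, which is less than the SD among the Smc3/Bcl6 tumors. Among these 5, tumors 5 and 1 lay above every Bcl6 tumor at 1.02% and 0.829%, tumor 6 at 0.717% was next to Bcl6 tumor 1, and tumors 3 and 4 at 0.617% and 0.547% were below Bcl6 tumors 1 and 2. Within replicate numbers 1 to 3 the Smc3/Bcl6 tumor was higher each time, by 0.113, 1.498 and 0.0345 percentage points. The mean was 0.548 over the 3 numbers and 0.0737 over numbers 1 and 3, without tumor 2. The numbers come only from the labels, which do not say that tumors of the same number belong together. The difference of 0.0345 was also below the SD of 0.0726 among the Bcl6 tumors.

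Counts were also scaled by exon length, taken as the union of all annotated exons of a gene. This union can be longer than the main message. Scaled this way, the members made up 1.22%, 1.19% and 0.980% of the total in Bcl6 tumors 1 to 3. On that scale Smc3/Bcl6 tumor 2 had 2.57%, or 2.13 times the median of the other 8 tumors, and Smc3/Bcl6 tumor 5 had 1.75%. The distance of tumor 2 from the rest was thus smaller per length than in counts.

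**Figure D1:**
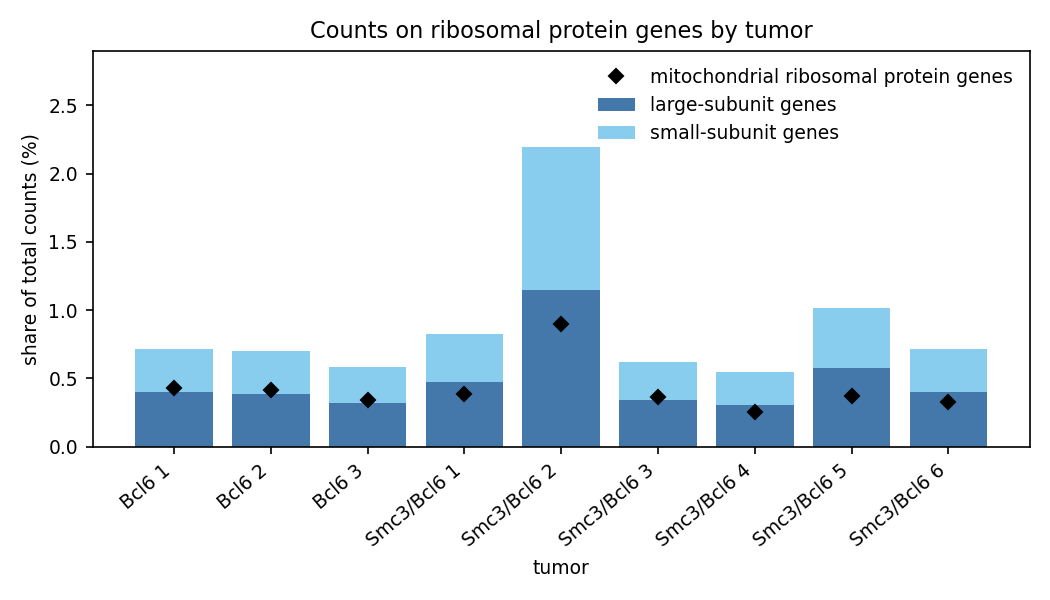
Share of total counts (%, y axis) on cytoplasmic ribosomal protein genes in each of the 9 tumors (x axis), stacked as large-subunit genes (dark) and small-subunit genes (light), with mitochondrial ribosomal protein genes as diamonds. Smc3/Bcl6 tumor 2 reaches 2.20% and the other 8 tumors lie between 0.547% and 1.02%.

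Both subunits were lowest in Smc3/Bcl6 tumor 4 and highest in Smc3/Bcl6 tumors 2, 5 and 1. Large-subunit genes took 0.370% ± 0.0406 (SD, n = 3) of counts in Bcl6 and 0.540% ± 0.312 (SD, n = 6) in Smc3/Bcl6 tumors, the latter 0.419% ± 0.108 (SD, n = 5) without tumor 2. Small-subunit genes took 0.296% ± 0.0324 (SD, n = 3) and 0.447% ± 0.304 (SD, n = 6), the latter 0.327% ± 0.0782 (SD, n = 5) without tumor 2. The genotypes overlapped in both subunits.

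The balance between the subunits varied far less than their level. Large-subunit counts were 1.22 to 1.31 times the small-subunit counts in 8 tumors and 1.09 times in Smc3/Bcl6 tumor 2, the lowest of the 9. As a log2 ratio the means were 0.32 ± 0.03 (SD, n = 3) in Bcl6 and 0.32 ± 0.10 (SD, n = 6) in Smc3/Bcl6 tumors. Without tumor 2 the Smc3/Bcl6 mean was 0.35 ± 0.03 (SD, n = 5), a difference of 0.0366 from Bcl6, about as large as the SD within each genotype. In Smc3/Bcl6 tumor 2 the median member of the small subunit was 2.27 above its mean in the other tumors on the log2 CPM scale, and the median member of the large subunit 2.14.

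The members moved together from tumor to tumor. Pearson's r between the log2 CPM of a member and the mean of the other members had a median of 0.98 over 9 tumors and of 0.83 over the 8 without Smc3/Bcl6 tumor 2. Over these 8 tumors r exceeded 0.8 in 44 of 76 members and in 1.76% of 13981 other genes, whose median was 0.03. These coefficients describe few tumors and the members share libraries and, in part, sequence. The SD of log2 CPM over 9 tumors had a median of 0.79 in the members and 0.63 in all genes tested, and over 8 tumors 0.34 in the members and 0.43 in all genes tested.

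In Smc3/Bcl6 tumor 2 nearly every member was high. That tumor was the highest of the 9 for 71 of 76 members and for 29.0% of all genes tested. The median member there was 2.19 above the mean of the other tumors (log2 CPM), with the middle part of the members, from the lower to the upper quartile, between 1.69 and 2.44. Genes with exon lengths in the range of the members had a median of 0.27, and those no longer than the median member (1775.5 bases) of 1.08. Mitochondrial ribosomal protein genes had a median of 1.90 and other messages known to begin with a pyrimidine tract of 1.27, while the median of all genes was -0.09.

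Within the members the deviation in tumor 2 went with length, count and uniqueness to a differing extent. In that tumor, Spearman's rho of the deviation over the 76 members was -0.26 with exon length, 0.49 with the mean count and 0.30 with the share of sequence that no other gene has. Summed markers of plasma cells were also highest there, at 1327 CPM against 427 to 733 CPM in the other 8 tumors, with Tnfrsf17 at 0 in at least 1 tumor, and T cell markers stood at 1499 CPM against 19.1 to 1438 CPM. B cell markers, with none of their 5 genes at 0 in any tumor, stood at 4147 CPM in tumor 2 and at 1824 to 8495 CPM elsewhere, and stroma markers at 20.001 CPM against 65.8 to 336 CPM. The part of length or of cell types in the level of the members was not tested.

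Away from that tumor the distances were smaller. Relative to the mean of the 8 tumors without it, the median member was 0.41 above in Smc3/Bcl6 tumor 5, with 70 of 76 members above, and 0.26 above in Smc3/Bcl6 tumor 1, with 64 above. It was at -0.29 in Bcl6 tumor 3, with 5 of 76 members above the mean, at -0.27 in Smc3/Bcl6 tumor 4 and at -0.20 in Smc3/Bcl6 tumor 3. Smc3/Bcl6 tumors thus lay near both ends of this range. Mitochondrial ribosomal protein genes had another order, with medians of -0.04 in Smc3/Bcl6 tumor 5 and of -0.48 in tumor 4.

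**Figure D2:**
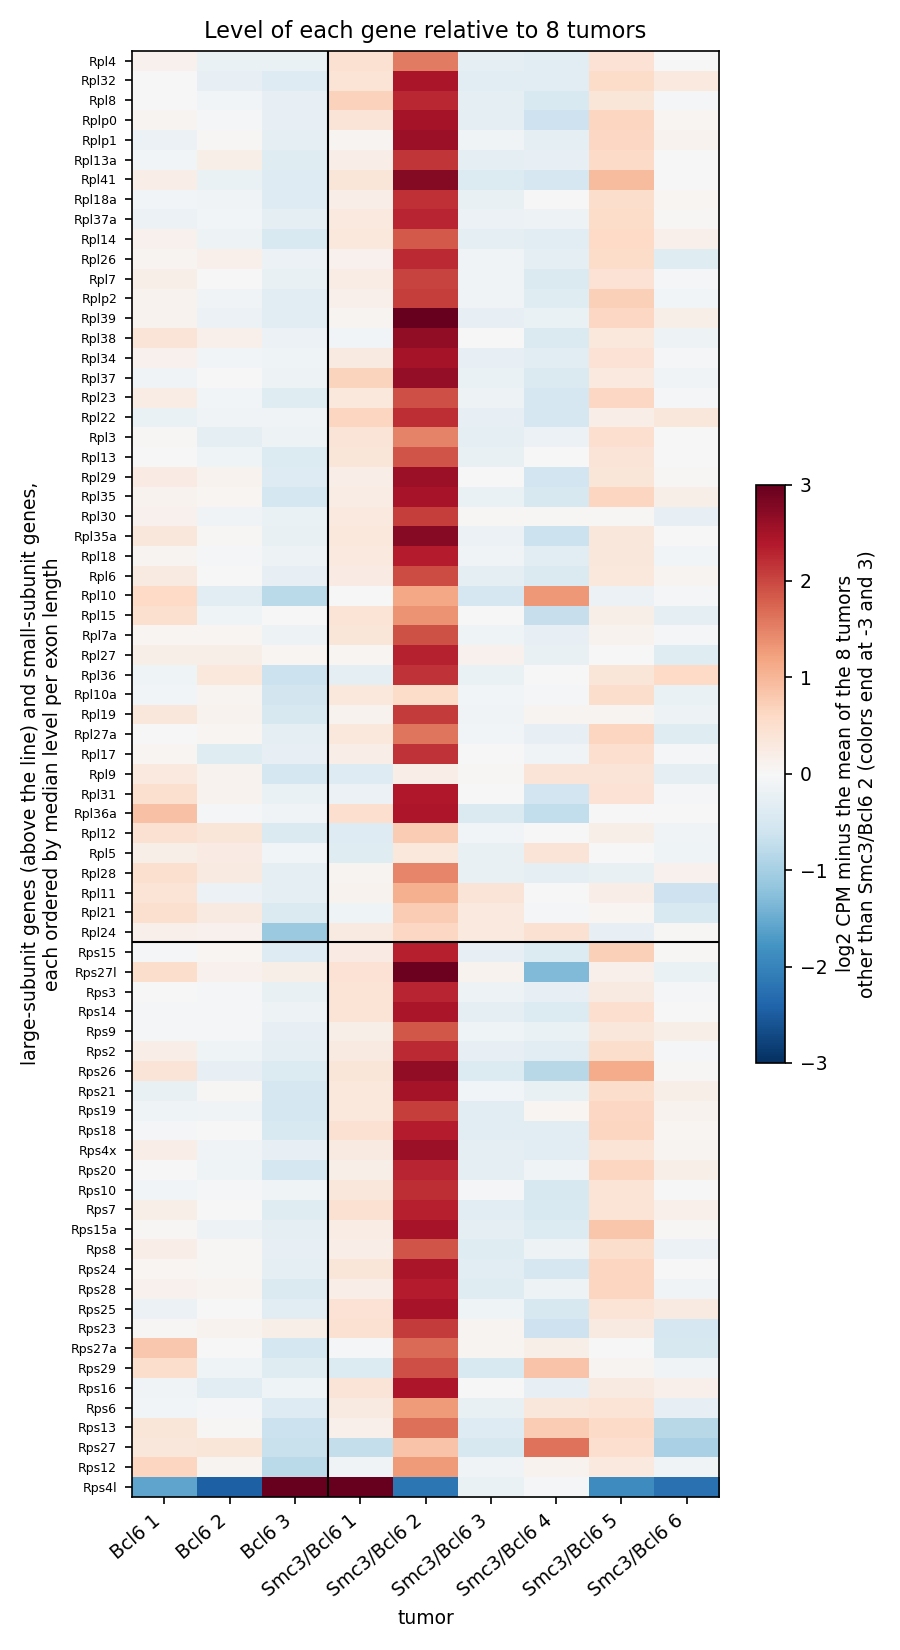
Log2 CPM of 73 of the 76 members (y axis, large subunit above the horizontal line, small subunit below it, ordered by level) in each tumor (x axis) minus its mean over the 8 tumors other than Smc3/Bcl6 tumor 2. The column of Smc3/Bcl6 tumor 2 is red for 72 members and blue for Rps4l, and the medians of the other columns lie between -0.29 and 0.41.

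Levels per exon length differed widely between members, by 623-fold from the highest to the lowest of the 75 other than Rps4l. The highest median over the 9 tumors was that of Rpl4 at 1450 TPM (counts per exon length, scaled to the same total in each tumor), and Rpl32 had 947 TPM. The lowest were Rps4l at 2.18 TPM, Rps12 at 2.33 TPM and Rpl24 at 2.495 TPM. The lengths join all annotated exons of a gene, up to 6270 bases in Rps15a. A member with long additional isoforms may therefore read too low, and the order and range depend on this choice. The 10 members with most counts held 63.3% of all counts of the 76, 30 members averaged over 1000 counts and 16 under 100.

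Many of these genes share sequence with processed pseudogenes and with each other. The median member had 62.9% of its transcripts' 50-base windows in no other annotated gene, 25 members had under 50%, and each shared windows with a median of 11 other genes, whereas the median of 75 mitochondrial ribosomal protein genes was 97.3%. The share in Rpl35 was 4.91%. Spearman's rho between the level per length and this share was 0.42 over the 76 members. Among members of low level, Rpl5 had 14.6% of its windows to itself, Rps6 15.4% and Rpl24 18.3%, so their levels are uncertain. Not all members followed this. Rpl21 and Rpl9 stood at only 4.06 and 9.84 TPM with 80.3% and 78.1% of their windows to themselves, and Rpl35 stood higher, at 38.3 TPM. How the authors' counting treated reads that match several genes is not given in the sources used here. The same limit holds for the shares of counts, the ratio between the subunits and the range of levels.

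**Figure D3:**
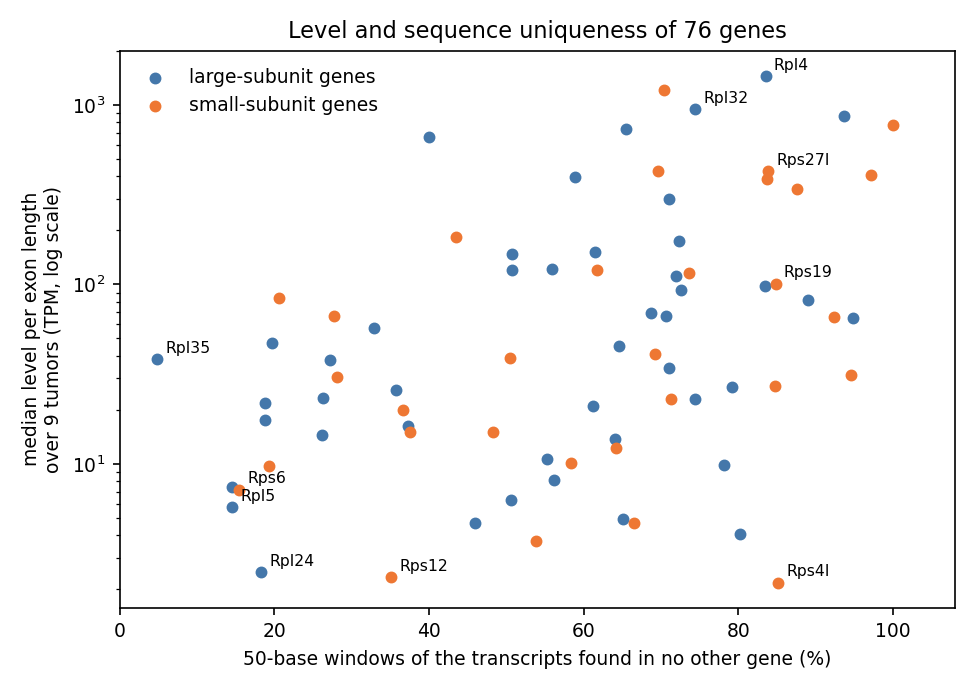
Median level per exon length over 9 tumors (TPM, log scale, y axis) against the share of 50-base transcript windows found in no other gene (%, x axis) for large-subunit (blue) and small-subunit (orange) members. Rpl4 stands highest at 1450 TPM with 83.5% of its windows unique, and Rps4l lowest at 2.18 TPM with 85.1%.

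The genotypes were compared gene by gene with the thresholds of the study, a log2 fold change beyond 0.56 in either direction together with an unadjusted p under 0.1. Of the 76 members, all of which passed the filter on low counts, 1 was higher in Smc3/Bcl6 tumors and 0 were lower by edgeR's quasi-likelihood test, against 1.28% of 14057 genes tested that were higher and 0.868% that were lower. At an adjusted p below 0.05 (Benjamini-Hochberg) there were 0 members by edgeR, DESeq2 or limma, and 0% of all genes tested by edgeR. At an unadjusted p below 0.05 there were also 0 members by each of these tools, against 0.562% of all genes by edgeR. On the same thresholds DESeq2, the tool that the study names for this comparison, called 9 of the 76 members higher, against 2.43% of all genes tested. Leaving out 1 tumor, edgeR called 8 members higher without Smc3/Bcl6 tumor 3, against 2.19% of all genes, 13 without tumor 4, against 1.39%, and 2 without tumor 6, against 0.707%. It called 0 without tumor 2, tumor 5 or any 1 of the Bcl6 tumors, against 0.578% to 2.43% of all genes.

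Fold changes pointed the same way in nearly all members. The median log2 fold change was 0.77 in the members and 0.06 in all genes tested, with 73 of 76 members and 57.4% of all genes above 0. It was 0.70 in the large and 0.82 in the small subunit. Each of the 76 lay within 2 standard errors of 0.

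Without Smc3/Bcl6 tumor 2, 0 members were higher and 0 lower by the same test, against 2.43% and 1.39% of all genes tested, and 0 were below an adjusted or an unadjusted p of 0.05. The median log2 fold change of the members was then 0.18 and that of all genes 0.03, with 61 of 76 members and 53.2% of all genes above 0. Since the members move together across the same tumors, their directions are not separate observations. In 0 members did every Smc3/Bcl6 tumor lie above every Bcl6 tumor, and in 0 below, with tumor 2 or without it. Among all genes 0.285% lay wholly above and 0.199% wholly below with tumor 2, and 0.697% and 0.726% without it.

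**Figure D4:**
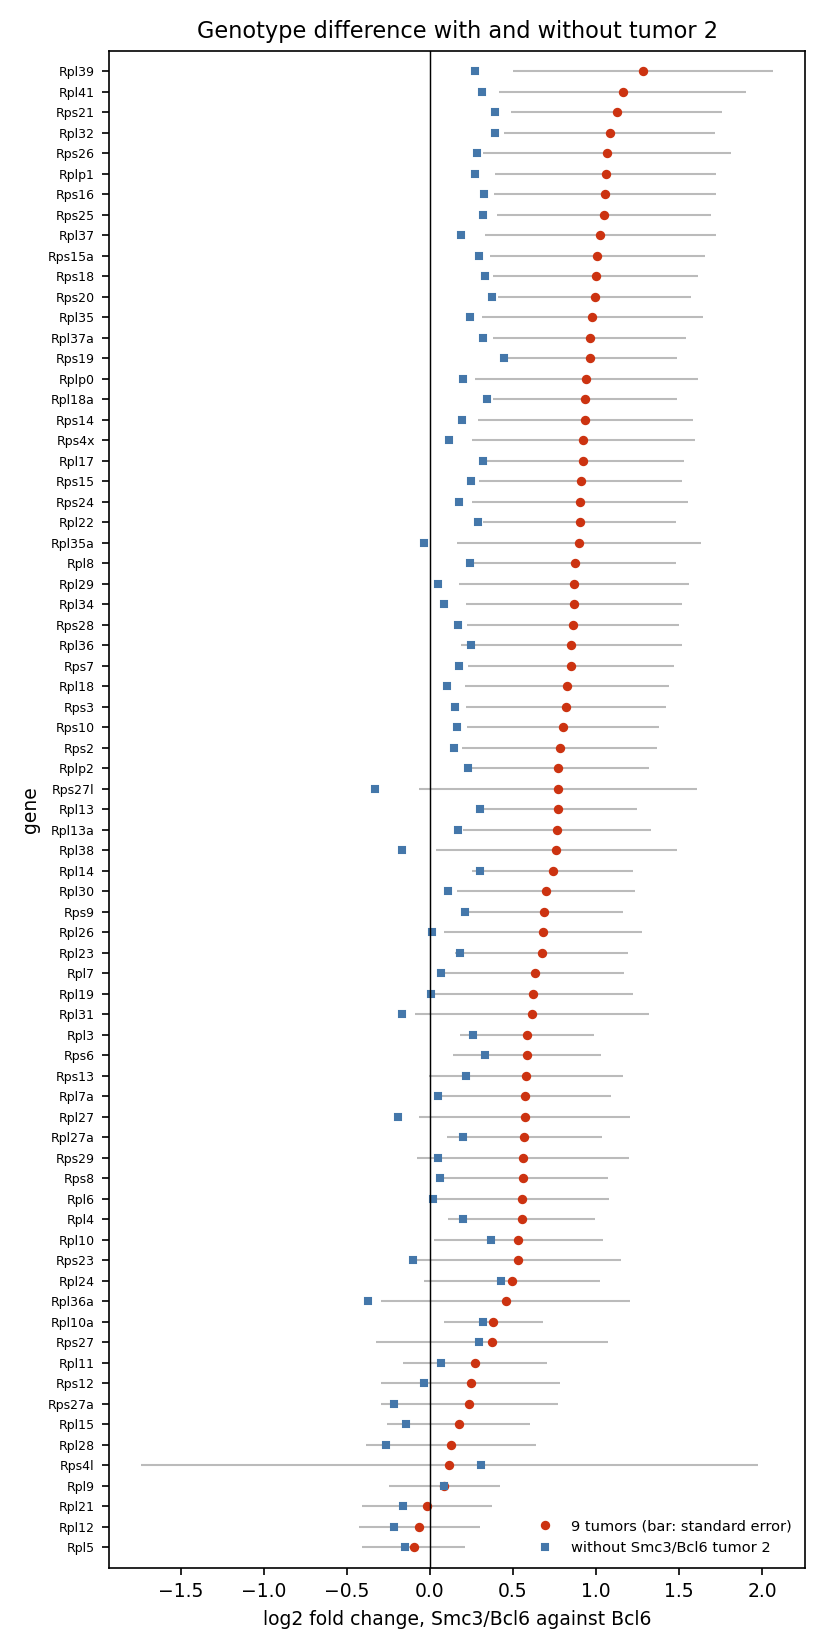
Log2 fold change of Smc3/Bcl6 against Bcl6 tumors (x axis) for 73 of the 76 members (y axis), from all 9 tumors (red circles, bars are standard errors) and without Smc3/Bcl6 tumor 2 (blue squares). The median over all 76 is 0.77 with and 0.18 without that tumor, and Rpl39 has the largest fold change with it, 1.28.

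By edgeR the member past the thresholds was Rps19 (chr7:24884371-24889806 of GRCm38), the gene most often mutated in Diamond-Blackfan anemia. Rps19 encodes a small-subunit protein needed to mature the small subunit's RNA. It stood at 150, 152 and 114 CPM in tumors 1 to 3 of the Bcl6 genotype, and at 130 CPM at the lowest, 190 CPM at the median and 688 CPM at the highest in Smc3/Bcl6 tumors. Smc3/Bcl6 tumor 3 lay between the Bcl6 tumors and the other 5 above them.

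The log2 fold change of Rps19 was 0.96 (standard error 0.53, unadjusted p = 0.0977, adjusted p = 1, quasi-likelihood test of edgeR, adjusted after Benjamini and Hochberg). Without Smc3/Bcl6 tumor 2 it was 0.45 (standard error 0.22), under the fold threshold. With a block for the replicate number, which leaves numbers 1 to 3 of each genotype, it was 0.89 (standard error 0.49, unadjusted p = 0.116 by the same test) and no longer past the thresholds, nor was it with the tissue label as a covariate or without any of the 3 Bcl6 tumors or Smc3/Bcl6 tumor 5.

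With that block the members past the thresholds were Rps21 and Rps25, both small-subunit proteins, against 0.337% of 13360 genes that were higher and 1.9% that were lower, and 0 members were lower. Rps21 stood at 25.6, 30.2 and 20.98 CPM in tumors 1 to 3 of the Bcl6 genotype, and at 25.6 CPM at the lowest, 35.1 CPM at the median and 169 CPM at the highest in the Smc3/Bcl6 genotype. Its log2 fold change was 1.09 with the block (standard error 0.51, unadjusted p = 0.0725, adjusted p = 0.983 by edgeR's quasi-likelihood test), 1.12 without it and 0.39 without Smc3/Bcl6 tumor 2. Rps25 had 1.05 with the block (standard error 0.54, unadjusted p = 0.0941 by the same test) and 0.32 without Smc3/Bcl6 tumor 2.

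Large fold changes were smaller without tumor 2. Rpl39, Rpl41, Rps21 and Rpl32, all among the 5 largest, had 1.28, 1.16, 1.12 and 1.08 on the log2 scale, with standard errors from 0.64 to 0.78. Rpl39, a short protein at the exit tunnel of the large subunit, stood at 52.7, 43.3 and 38.5 CPM in tumors 1 to 3 of the Bcl6 genotype. Its level in Smc3/Bcl6 tumors was 41.5 CPM at the lowest, 53.3 CPM at the median and 388 CPM at the highest, and the highest was tumor 2, at 7.75 times the mean of the other 8 tumors. Without tumor 2 the 4 log2 fold changes were 0.27, 0.31, 0.39 and 0.39.

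Rpl4, which lines the exit tunnel and had the highest level per length, was less far above the rest in that tumor. Its level was 1037, 819 and 820 CPM in tumors 1 to 3 of the Bcl6 genotype, and at 762 CPM at the lowest, 1107 CPM at the median and 2785 CPM at the highest in Smc3/Bcl6 tumors. Tumor 2 was thus 2.88 times the mean of the others, and Smc3/Bcl6 tumors 1 and 5 followed at 1301 and 1274 CPM. The log2 fold change was 0.55 (standard error 0.44), and 0.20 (standard error 0.25) without tumor 2.

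The P stalk of the large subunit, which recruits elongation factors, is formed by Rplp0, Rplp1 and Rplp2. By edgeR none of the 3 passed the thresholds, while DESeq2 called Rplp1 higher. Their median log2 fold change by edgeR was 0.94 with and 0.23 without Smc3/Bcl6 tumor 2. In the Bcl6 genotype Rplp0 averaged 377 ± 44.2 CPM (SD, n = 3), and the Smc3/Bcl6 tumors other than tumor 2 averaged 427 ± 145 CPM (SD, n = 5), while tumor 2 reached 2213 CPM. Rplp1 went from 100 ± 11.6 to 120 ± 30.6 CPM and Rplp2 from 71.4 ± 11.04 to 82.5 ± 25.5 CPM in the same groups, each within the spread of the Smc3/Bcl6 tumors.

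Rpl5 and Rpl11 form the 5S ribonucleoprotein that binds and restrains Mdm2 when ribosome assembly fails, and Rpl23 binds Mdm2 as well. Rpl5 stood at 8.997, 9.504 and 7.561 CPM in tumors 1 to 3 of the Bcl6 genotype, and at 6.17 CPM at the lowest, 7.66 CPM at the median and 10.4 CPM at the highest in Smc3/Bcl6 tumors. The groups overlapped, and the highest was tumor 4, so that Rpl5 was among the members nearest to the other tumors in tumor 2, at 1.23 times the mean of the others. Its log2 fold change was -0.10 (standard error 0.31), the lowest of the 76. Rpl11 had 0.27 (standard error 0.43) and Rpl23 0.67 (standard error 0.52), and 0.06 and 0.18 without tumor 2.

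The members whose level in Smc3/Bcl6 tumor 2 stayed nearest to the others were of low count and mostly of the large subunit. Rpl9 stood there at 1.13 times the mean of the others, Rpl10a at 1.44, Rpl24 at 1.55, and Rpl12 and Rpl21, which had 118.89 and 82.89 counts on average, at 1.67 each. Rpl12, near the P stalk, had a log2 fold change of -0.07, Rpl21 of -0.02 and Rpl9 of 0.09. Without tumor 2 these were -0.22, -0.16 and 0.08. For Rpl9 the SD over the 9 tumors was 0.34 on the log2 CPM scale, against a median of 0.79 in the members.

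Members that are mutated or deleted in lymphoid cancers are Rpl5, Rpl10, Rpl11, Rpl22 and Rps15. None of the 5 passed the thresholds, and their median log2 fold change was 0.53, or 0.25 without Smc3/Bcl6 tumor 2. Rpl22, whose loss is known in T cell leukemia, stood at 57.1, 61.1 and 61.6 CPM in tumors 1 to 3 of the Bcl6 genotype, and at 46.2 CPM at the lowest, 79.5 CPM at the median and 308 CPM at the highest in Smc3/Bcl6 tumors. Smc3/Bcl6 tumors 1, 5 and 6 were above the Bcl6 tumors and tumors 3 and 4 below them, and the log2 fold change was 0.90 (standard error 0.58), or 0.29 (standard error 0.26) without tumor 2. Rps15, mutated in chronic lymphocytic leukemia, averaged 78.7 ± 11.8 CPM (SD, n = 3) in the Bcl6 genotype, against 92.4 ± 29.4 CPM (SD, n = 5) in the Smc3/Bcl6 genotype without tumor 2.

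Rpl10, an X-linked gene whose product joins the large subunit late, departed from the common order of tumors. It stood at 26.2, 13.6 and 9.73 CPM in tumors 1 to 3 of the Bcl6 genotype, and at 12.1 CPM at the lowest, 16.9 CPM at the median and 42.9 CPM at the highest in Smc3/Bcl6 tumors. The highest was tumor 4, in which most members were low, and tumor 2 followed at 39.1 CPM. Only 26.3% of its windows are found in no other gene. Rps27 had the same exception, at 5.12 CPM in tumor 4, 2.96 CPM in tumor 2 and 0.733 to 2.29 CPM in the other 7 tumors, though from few reads, with 27.78 counts on average. Summed markers of erythroid cells, all 5 of them found and none at 0 in any tumor, were 12365 CPM in tumor 4 and 42.2 to 4653 CPM in the other 8, and their part in these levels was not tested.

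Among the 11 members listed as mutated in Diamond-Blackfan anemia, Rps19 was the 1 past the thresholds. The median log2 fold change of the 11 was 0.80, or 0.16 without Smc3/Bcl6 tumor 2. Rps26, another of the 11, had 76.8, 49.4 and 43.9 CPM in tumors 1 to 3 of the Bcl6 genotype and 33.0 CPM at the lowest, 67.6 CPM at the median and 374 CPM at the highest in Smc3/Bcl6 tumors. Tumor 5 was second with 127 CPM. Rps6, the substrate of S6 kinase, had 3.41 ± 0.413 CPM (SD, n = 3) and, without tumor 2, 4.24 ± 0.925 CPM (SD, n = 5). The log2 fold change of Rps6 was 0.58 (standard error 0.44) over 9 tumors and 0.33 (standard error 0.32) without tumor 2. Rps27a, made as a fusion with ubiquitin, had 0.24 (standard error 0.53), and -0.22 without tumor 2.

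Rps27l, a paralog of Rps27 and a known target of p53, stood at 426 TPM, above Rps27 at 3.71 TPM on the same scale, with 83.8% and 53.8% of their windows found in no other gene, so the level of Rps27 is the less certain. It stood at 145, 110 and 114 CPM in tumors 1 to 3 of the Bcl6 genotype, and at 40.4 CPM at the lowest, 110 CPM at the median and 778 CPM at the highest in Smc3/Bcl6 tumors. Tumor 2 was 7.30 times the mean of the others, and tumor 4, the lowest, lay clearly under the remaining tumors, which spanned 88.4 to 145 CPM. Its log2 fold change was 0.77 (standard error 0.84), and -0.33 (standard error 0.33) without tumor 2.

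Rps4l (chr6:148354656-148355598 of GRCm38), an intronless paralog of the X-linked Rps4x that GENCODE lists as a transcribed processed pseudogene, was present in some tumors and nearly absent from others. It had 8, 6 and 344 counts in Bcl6 tumors 1 to 3, and 960, 4, 40, 35, 7 and 6 counts in Smc3/Bcl6 tumors 1 to 6. That is 32.5 CPM in Bcl6 tumor 3 and 66.6 CPM in Smc3/Bcl6 tumor 1 against 0.324 to 2.33 CPM in the other 7, with high tumors in both genotypes. Rps4l was the 1 member below the mean of the other tumors in Smc3/Bcl6 tumor 2, and 85.1% of its windows are found in no other gene.

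The log2 fold change of Rps4l was 0.12 (standard error 1.86). It was -3.24 without Smc3/Bcl6 tumor 1 and then past the thresholds, while leaving out Bcl6 tumor 3 gave 4.56, not past them, so each direction rested on 1 tumor. Rps4x stood at 38.7, 31.1 and 28.2 CPM in tumors 1 to 3 of the Bcl6 genotype, and at 26.4 CPM at the lowest, 37.9 CPM at the median and 198 CPM at the highest in Smc3/Bcl6 tumors. It followed the common order of tumors, and its log2 fold change was 0.92 (standard error 0.67), or 0.11 (standard error 0.22) without tumor 2.

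**Figure D5:**
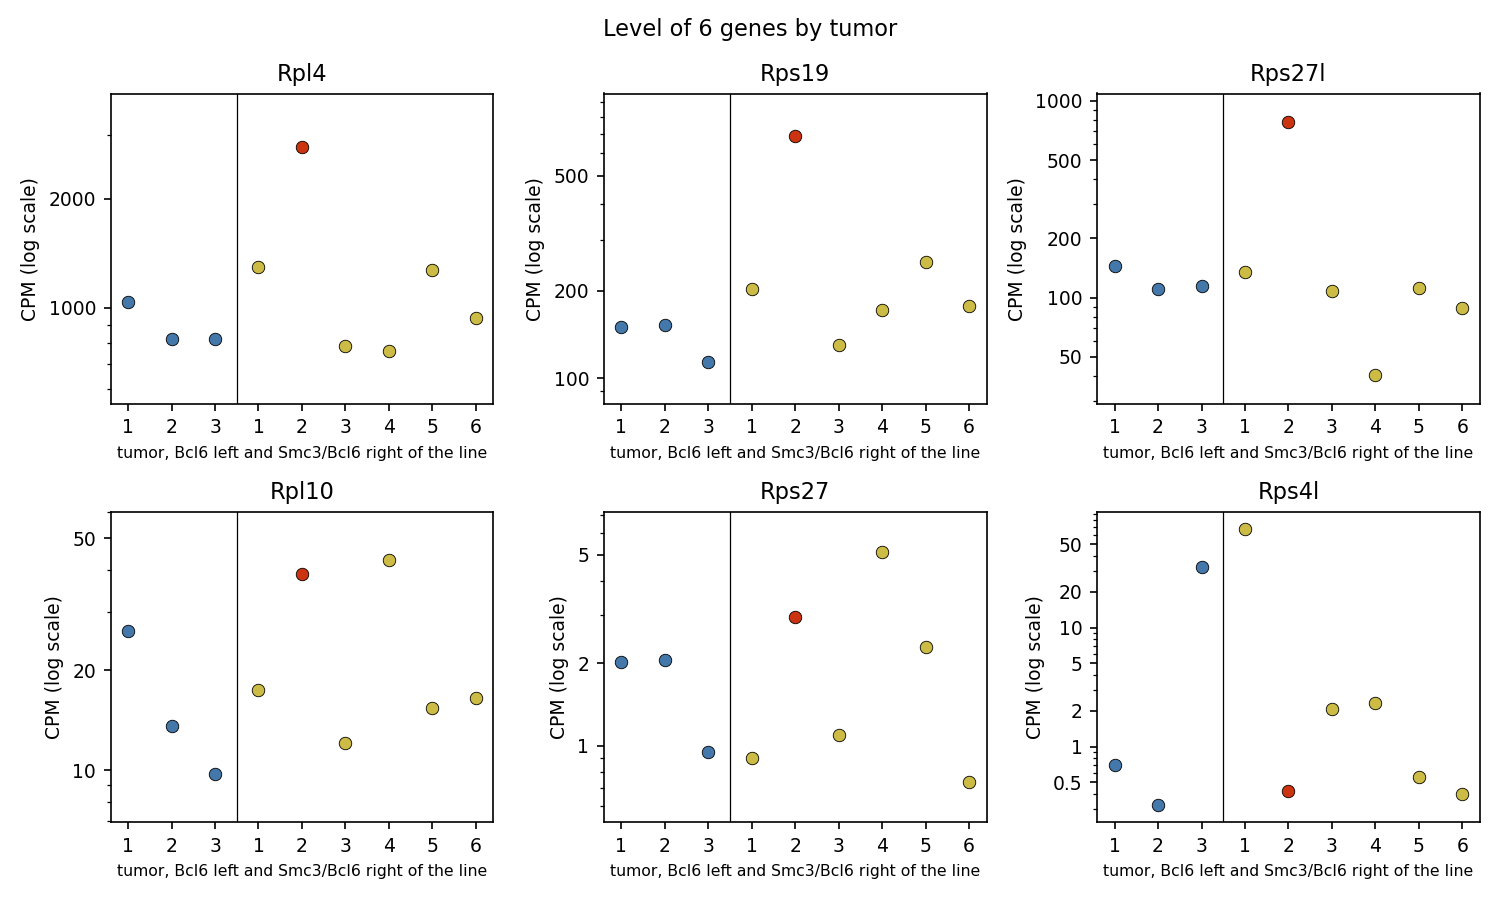
CPM (log scale, y axis) of 6 members in each tumor (x axis; Bcl6 tumors left, Smc3/Bcl6 tumors right of the line, Smc3/Bcl6 tumor 2 in red). Rpl4 and Rps19 peak in tumor 2, Rps27l also dips to 40.4 CPM in tumor 4, Rpl10 and Rps27 peak in tumor 4, and Rps4l is high in Bcl6 tumor 3 and Smc3/Bcl6 tumor 1.

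Other gene lists of translation were read beside the members. Of 76 mitochondrial ribosomal protein genes, which serve translation inside mitochondria, 0 were higher and 0 lower by edgeR's thresholds, with a median log2 fold change of 0.33. Without Smc3/Bcl6 tumor 2 it was -0.19, with 1 gene lower, Mrps6, so that the cytoplasmic and mitochondrial medians then lay on opposite sides of 0. Mitochondrial ribosomal protein genes took 0.398% ± 0.0466 of counts (SD, n = 3) in Bcl6 and 0.433% ± 0.232 (SD, n = 6) in Smc3/Bcl6 tumors. Without tumor 2 the latter was 0.340% ± 0.0539 (SD, n = 5), so the direction of the difference turned with that tumor.

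Of 16 further messages known to begin with a pyrimidine tract, such as those of elongation factors, 0 passed the thresholds in either direction. Their median log2 fold change was 0.39, or 0.14 without Smc3/Bcl6 tumor 2. Their share of counts was highest in Smc3/Bcl6 tumor 5 at 0.588%, with tumor 2 at 0.561% and the other 7 tumors at 0.261% to 0.443%, and the lowest was tumor 4, as it was for the cytoplasmic ribosomal proteins.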

How the data were processed

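RNA-seq counts of 3 Bcl6 and 6 Smc3/Bcl6 tumors were analyzed. The authors prepared libraries with the TruSeq RNA kit, ran the nf-core RNA-seq pipeline, aligned reads with STAR to mm10 and Gencode M12, and deposited featureCounts counts per gene without normalization (per the labels, R 4.0.2 and DESeq2 1.28.1 were also used). The table held 0 columns without a sample. GENCODE M21 (GRCm38) gave positions and exon lengths (the union of a gene's annotated exons) for 97.9% of identifiers.

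The genotypes were then tested against each other in R 4.3.3 by edgeR 4.0.16 (TMM, filter on low counts, quasi-likelihood test, Benjamini-Hochberg adjustment over all genes tested), in a script tested on simulated data. DESeq2 1.42.0, limma 3.58.1 with quality weights, other normalizations, an exon length offset (lowess span 0.3), no filter, the tissue label, the replicate number as a block and each tumor left out were alternatives. Log2 CPM used a prior count of 2. Shares carry no p-value. The deviations of tumors with the same number had correlations of 0.443, 0.113 and 0.155 for numbers 1 to 3. Tumors with unlike numbers were not compared, so these values do not show that the same number makes tumors more alike. The pairing comes only from the labels' numbers. Nothing in the labels beyond separate tumor names says how the samples relate, so p-values measure the spread between these samples.

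The members, lists and named genes were chosen with earlier results of these data known. Named were members of role lists (P stalk, Mdm2 binding, lymphoid cancers, Diamond-Blackfan anemia, Rps6, Rps27a, paralogs and partners), the 5 largest positive and 5 lowest log2 fold changes, those past the thresholds, and the 3 highest and lowest levels per length and SDs. Rps25 was named after its values were seen. Values of some genes taken by these rules are not reported here.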

Additional observations from a re-analysis of the deposited data

Results flagged for a closer look

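In the group of 6 Smc3/Bcl6 tumors, 41 results were examined for a tumor set apart, measured as the distance of the highest or lowest tumor to its neighbor over the group's whole range, and 32 passed the 95% critical value of Dixon's test. Chance gives about 1 in 20 in groups not chosen for their values. Tumor 2 was already known to stand apart, with short genes high, before these results were examined, and the members move together. The number that passed is therefore no test of that tumor. Most of these members were named by role, and Rpl32, Rpl39, Rpl41, Rps21, Rps26 and Rps27l for a large fold change or SD, to which tumor 2 contributes. In 31 the tumor was tumor 2, so these describe 1 library and are not separate findings.

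The gap was 0.714 of the range for the share of counts on ribosomal protein genes, 0.679 for the large-subunit share, 0.751 for the small-subunit share and 0.674 for the log2 ratio of large- to small-subunit counts, in which tumor 2 was lowest. Among CPM of the named members, it was 0.902 for Rpl39, 0.897 for Rpl35a, 0.895 for Rps4x, 0.882 for Rps21, 0.871 for Rps27l, 0.859 for Rplp1, 0.855 for Rpl32, 0.851 for Rps7 and 0.845 for Rps10. It was 0.838 for Rps27a, 0.831 for Rpl36a, 0.828 for Rpl26, 0.820 for Rps24, 0.819 for Rpl7, 0.815 for Rplp0, 0.7996 for Rpl41, 0.798 for Rps12, 0.793 for Rps15, 0.784 for Rpl22 and 0.781 for Rps19. It was lower for Rplp2 at 0.747, Rpl4 at 0.734, Rpl23 at 0.733, Rps26 at 0.725, Rpl3 at 0.700, Rps6 at 0.694 and Rpl15 at 0.632.

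The remaining result was Rps4l, whose CPM was set apart by Smc3/Bcl6 tumor 1 with a gap of 0.971 of the range. Bcl6 tumor 3 was also high for this gene, but groups of 3 were not examined.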

How the results depend on the processing

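The difference in mean share between genotypes kept its direction under every alternative computed. Leaving out each tumor gave 0.0798 to 0.410 percentage points for all members, 0.0496 to 0.218 for the large and 0.0302 to 0.192 for the small subunit, the lowest each time without Smc3/Bcl6 tumor 2. With the TMM-scaled library as denominator the values were 0.493, 0.260 and 0.233, with the replicate block 0.548, 0.283 and 0.265, and per exon length the large subunit had 0.220. The log2 ratio of the subunits differed by -0.00144, and by -0.0171 to 0.0366 on leaving out each tumor, 0.0329 with structural genes outside the naming rule added, 0.0773 per exon length and -0.0419 with the replicate block.

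The 1 member called higher became 9 with DESeq2 (2.43% of all genes tested), 6 with an exon length offset (1.5%), 6 without a filter (2.18%), 5 with the replicate block and that offset (0.531%), 2 with the replicate block (0.337%), and 0 with limma (4.57%), with the tissue label (0.925%), at an unadjusted p below 0.05, and in the settings added after seeing the data, the offset without tumor 2 (2.28%) and the replicate block over numbers 1 and 3 (0.403%). Leaving out each tumor gave 0 to 13 higher (8 without Smc3/Bcl6 tumor 3, 13 without tumor 4) and 0 to 1 lower. The median log2 fold change was 0.54 with the offset, 0.17 with limma, 0.23 with the offset without tumor 2, 0.13 with the block over numbers 1 and 3, and 0.18 to 0.87 on leaving out each tumor. Of 800 pairs of a named member and an alternative, the log2 fold change had another sign than in the main fit in 56. In 18 pairs the member was called only under the alternative, and 10 lost the call of Rps19. A call in the reverse direction came in 1 pair, Rps4l at -3.24 without Smc3/Bcl6 tumor 1 (4.56 without Bcl6 tumor 3). The causes were not tested. Members with 100 counts or fewer, and those whose reads match other genes, limit what can be read from single genes.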

Other observations

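Structural genes of the ribosome whose symbols fall outside the naming rule showed the same tumors. The 5 genes Fau, Rps3a1, Rpl36al, Rpsa and Gnb2l1, the last a scaffold on the small subunit, had a median log2 fold change of 0.72, or 0.17 without Smc3/Bcl6 tumor 2, and 0 passed the thresholds by edgeR. Gnb2l1 had 549 ± 114 CPM (SD, n = 3) in Bcl6 tumors, 512 ± 148 CPM (SD, n = 5) in Smc3/Bcl6 tumors without tumor 2 and 2522 CPM in tumor 2. Of 246 rows named as ribosomal protein pseudogenes, 213 had a count and 26 passed the filter on low counts, with 0.00513% to 0.0171% of all counts in a tumor, and their median log2 fold change was 0.55, or 0.09 without tumor 2.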
